A study of Homo sapiens with 6 samples.

Results

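Laminins are the large cross-shaped glycoproteins of the basement membrane, the thin matrix sheet on which epithelial cells rest. Each laminin is a trimer of an alpha, a beta and a gamma chain that assembles inside the cell, and every chain has its own gene, so the chains a cell transcribes limit the trimers it can secrete. Laminin-332, to which LAMA3 and LAMB3 give the alpha and beta chains, is the laminin of skin and mammary epithelium that anchors hemidesmosomes, whereas laminin-511 and laminin-521 pair LAMA5 with LAMC1 and with LAMB1 or LAMB2, and LAMA4 and LAMA1 are the alpha chains of trimers better known from vessel walls, muscle and the embryo. Expression of 8 laminin chain genes (LAMA1, LAMA3, LAMA4, LAMA5, LAMB1, LAMB2, LAMB3 and LAMC1), picked by gene symbol out of 26334 genes in the count table, was followed in MCF10DCIS.com cells upon silencing of WDR5, and the laminin-332 chains among them were set against the other 6. LAMA2, LAMB4 and LAMC3, outside this list, are given alongside.

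MCF10DCIS.com is a human breast cancer cell line of the MCF10 series with basal features. WDR5 is the WD40 repeat subunit that histone H3K4 methyltransferase complexes need for activity. Cells were infected with a pRSI-U6 lentiviral vector that also carries UbiC-driven TagRFP and puromycin resistance, were selected with puromycin, and expressed a hairpin against luciferase (shLuc, 3 libraries) or against WDR5 (shWDR5, 3 libraries; the methods of the study describe pooled WDR5 hairpins for infections of this line). Both groups thus shared the line, the medium with horse serum, the vector backbone and the drug. Poly(A) RNA was sequenced, and reads assigned to genes numbered 48500509, 38218108 and 39327358 in the shLuc libraries and 47723477, 57640167 and 46097058 in the shWDR5 libraries. No label says that replicates came from separate infections, so p-values measure the spread between these libraries, which may be technical. In bulk RNA, fewer cells expressing a gene and less RNA per cell cannot be told apart.

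WDR5 itself was read first, as a check of the labels. Its level, in RPKM (reads scaled to exon length and to the TMM-scaled library size), was 16.5, 15.2 and 16.1 in the shLuc libraries and 7.34, 7.65 and 6.52 in the shWDR5 libraries. WDR5 was lower in every shWDR5 library, with a log2 fold change of -1.15 ± 0.07 (SE; edgeR quasi-likelihood test, adjusted p = 8.67e-07), so 0.45 of the control level remained.

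WDR5 silencing moved the laminin-332 chains up and part of the other chains down. Among the 8 genes, LAMA3 and LAMB3 rose, LAMB1, LAMA4 and LAMA5 fell, and LAMC1, LAMA1 and LAMB2 did not pass the test. This response has to be read against its background, because 56.5% of the 16117 genes tested passed the same threshold (adjusted p under 0.05), 26.6% upward and 29.9% downward. With 5 of 8 called (62.5%), laminin chains were called about as often as genes in general. Their median log2 fold change was -0.14, beside -0.01 over all genes tested, and what set the chains apart from each other was direction: 2 of 2 laminin-332 chains in the list were called higher, while 3 of the other 6 were called lower and 0 higher.

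The promoters of a rising and a falling group are shown first. RefSeq start sites (GRCh38.p14) were matched for 9 of the 11 laminin chain genes looked up, all but LAMA1 and LAMC3, and gave 11 windows of 250 bases upstream. AP-1, the dimer of JUN and FOS proteins that drives many epithelial genes, binds TGANTCA, which is its own reverse complement apart from the centre and was searched on both strands. It was present in 2 of the 11 windows, those of LAMA3 and of one LAMB3 start, beside 6.57% of the 35116 windows in the whole table. The windows of LAMA3 (chr18:23872770-23873019, plus strand), of LAMB3 (chr1:209651375-209651624, minus strand) and of LAMB1 (chr7:108003162-108003411, minus strand), the chain that fell most, are printed 5′ to 3′ with TGANTCA in capitals.
LAMA3: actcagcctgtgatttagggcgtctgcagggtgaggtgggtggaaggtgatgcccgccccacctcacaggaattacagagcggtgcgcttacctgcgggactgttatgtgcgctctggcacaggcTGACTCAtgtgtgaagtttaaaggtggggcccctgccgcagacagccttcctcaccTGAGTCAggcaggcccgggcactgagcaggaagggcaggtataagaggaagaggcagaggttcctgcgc
LAMB3: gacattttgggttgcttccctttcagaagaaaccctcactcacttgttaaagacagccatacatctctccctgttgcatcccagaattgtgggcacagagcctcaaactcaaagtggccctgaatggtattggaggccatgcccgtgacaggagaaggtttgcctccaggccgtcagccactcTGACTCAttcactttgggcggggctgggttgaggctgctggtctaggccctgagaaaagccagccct
LAMB1: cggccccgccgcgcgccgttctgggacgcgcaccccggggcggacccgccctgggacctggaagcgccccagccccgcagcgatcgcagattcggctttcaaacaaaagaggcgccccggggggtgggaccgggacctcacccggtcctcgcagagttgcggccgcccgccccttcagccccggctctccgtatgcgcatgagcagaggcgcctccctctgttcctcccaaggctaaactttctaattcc
In LAMA3 the matches began 125 and 69 bases before the start, and in LAMB3 67 bases before it. The LAMA3 window belongs to an internal start, that of the short form, and the start of the long form, further upstream, is not shown. The other 2 LAMB3 windows, further upstream, held none. None of the 11 windows held CACGTG, the E-box of MYC and MAX (6.34% of all windows), and 8 held GGGCGG, the GC box of SP1 (42.6% of all windows), among them 4 matches in LAMB1 and 5 in LAMA5. The 2 upstream LAMB3 windows overlap, and the GGGCGG match that each holds is the same site, counted once in each. TATAAA (10.7%) and GTCTAGAC (0.182%) occurred in none, GGAATG (11.9%) only in LAMA2, and CATG, a short core of p53 sites (47.6%), in 5 of the 11. The motifs were chosen with the expression results known, each match is a run of letters and not a measured binding site, and the gene counts do not tell which start was used.

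LAMA3 encodes the alpha chain of laminin-332, the part that integrins grip. The gene lies on chr18:21269407-21535029 of hg19, plus strand. Its level was 96.3, 94.2 and 86.9 RPKM in the shLuc libraries and 221.7, 198.2 and 210.8 RPKM in the shWDR5 libraries. All shWDR5 libraries were above all shLuc libraries, and the groups were separated by more than the whole spread within either of them. The rise was 2.27-fold (log2 fold change 1.18 ± 0.06 SE, edgeR adjusted p = 2.69e-07), from 92.5 ± 4.94 to 210.2 ± 11.8 RPKM (mean ± SD, n = 3 each). LAMA3 is transcribed as a long and a short form, and since the exon length of the table (11222 bases) spans both, its RPKM understates the level if the short form prevails; the fold change is free of this unless the forms shifted.

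LAMB3, the beta chain found in laminin-332 (chr1:209788218-209825820, minus strand), was the most abundant of the 8 genes. It stood at 594.4, 564.0 and 467.6 RPKM in shLuc and at 886.5, 755.1 and 795.5 RPKM in shWDR5. The groups did not overlap, yet their distance was smaller relative to the replicates than for LAMA3, with shLuc replicate 3 lowest. LAMB3 rose 1.50-fold (log2 fold change 0.58 ± 0.09 SE, edgeR adjusted p = 0.000312), from 542.0 ± 66.2 to 812.4 ± 67.3 RPKM (SD, n = 3 each). Its log2 fold change ranged from 0.48 without shLuc replicate 3 to 0.67 without shLuc replicate 1. Under a stricter rule modelled on the study's criteria, which adds a log2 fold change of at least 0.6 and an RPKM above 0.5 to the adjusted p and passes 18.4% of genes, LAMB3 lay just outside and LAMA3 alone of the 8 passed.

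LAMA3 and LAMB3 together took 0.382%, 0.364% and 0.316% of all gene counts in the shLuc libraries and 0.628%, 0.554% and 0.584% in the shWDR5 libraries, so every silenced library gave these chains a larger share than every control.

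Of the alpha chains outside laminin-332, LAMA5 and LAMA4 fell, LAMA1 did not pass the test, and LAMA2, barely expressed, rose. LAMA5 (chr20:60884116-60942368, minus strand), the alpha chain of the widespread epithelial laminins, was measured at 49.6, 50.2 and 46.2 RPKM in shLuc and at 40.9, 37.2 and 37.9 RPKM in shWDR5. The groups did not overlap, and LAMA5 fell by 0.33 on the log2 scale (SE 0.06, edgeR adjusted p = 0.000660). LAMA4 (chr6:112429134-112575917, minus strand), known from vessel and mesenchymal basement membranes, was at 22.9, 22.2 and 23.3 RPKM in shLuc and at 15.8, 17.3 and 15.9 RPKM in shWDR5. All 3 silenced libraries were below all controls, and LAMA4 fell by 0.48 (SE 0.06, adjusted p = 4.58e-05). LAMA1 (chr18:6941743-7117813, minus strand), the alpha chain of the embryonic laminin-111, was near 1 RPKM throughout, with 1.02, 1.03 and 0.898 RPKM in shLuc and 0.881, 0.898 and 0.841 RPKM in shWDR5. The groups just overlapped, and it did not pass the test (log2 fold change -0.17 ± 0.08 SE, edgeR adjusted p = 0.100). It passed without shLuc replicate 3 (log2 fold change -0.23, adjusted p = 0.0386). LAMA2, the alpha chain of muscle laminin, had 39, 37 and 31 reads in shLuc and 53, 82 and 58 reads in shWDR5, under 0.15 RPKM in each library, and at this low level it was called higher (log2 fold change 0.63 ± 0.17 SE, edgeR adjusted p = 0.00858).

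Of the beta chains that pair with these alpha chains, LAMB1 fell and LAMB2 did not pass the test. LAMB1 (chr7:107564246-107643804, minus strand) was at 84.0, 81.7 and 81.2 RPKM in shLuc and at 58.5, 57.8 and 55.3 RPKM in shWDR5. Replicates lay within 3 RPKM of each other in the controls and within 4 RPKM in the silenced cells, and no library crossed the gap. LAMB1 fell by 0.53 on the log2 scale (SE 0.05, edgeR adjusted p = 9.70e-06), to 0.695 of the control level, and it fell most of the 8 genes. LAMB2 (chr3:49158547-49170599, minus strand), the beta chain of laminin-521 and of neuromuscular and kidney basement membranes, was at 40.2, 37.8 and 35.9 RPKM in shLuc and at 44.7, 39.3 and 40.6 RPKM in shWDR5. The groups overlapped and LAMB2 did not pass the test (log2 fold change 0.13 ± 0.07 SE, 95% interval -0.02 to 0.27, edgeR adjusted p = 0.117). Without shLuc replicate 1 it passed, at a log2 fold change of 0.19 (adjusted p = 0.0339), whereas without shWDR5 replicate 1 the log2 fold change was 0.073 (adjusted p = 0.366). LAMB4 was represented by 2 reads in each shLuc library and by 4, 5 and 6 reads in the shWDR5 libraries, too few to be tested.

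LAMC1 (chr1:182992595-183114727, plus strand), the gamma chain shared by most laminins other than laminin-332, did not pass the test. It was at 87.5, 85.7 and 85.8 RPKM in shLuc and at 82.6, 80.7 and 78.0 RPKM in shWDR5. Although the groups did not overlap, the step did not reach the threshold (log2 fold change -0.10 ± 0.05 SE, 95% interval -0.21 to 0.0041, edgeR adjusted p = 0.0929). LAMC3 had 2, 4 and 3 reads in shLuc and 7, 10 and 9 reads in shWDR5 and was not tested. Over the 8 genes, the RPKM of the groups did not overlap for 6, beside 62.3% of all genes tested.

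Set side by side, the mean log2 fold change was 0.88 for LAMA3 and LAMB3 and -0.25 for the other 6 chains, whose single values ran from -0.53 to 0.13. Within each library, the mean log2 RPKM of LAMA3 and LAMB3 exceeded that of the other 6 by 3.18, 3.15 and 3.01 in shLuc and by 4.31, 4.15 and 4.28 in shWDR5. Every silenced library thus held a wider gap than every control, by about 1.13 on the log2 scale between the group means of 3.11 ± 0.088 and 4.25 ± 0.085 (SD, n = 3 each). These differences are given without a test, because the chains were listed with results of these data known.

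Per length, the make-up of the alpha and of the beta chains shifted toward the laminin-332 chain. LAMA3 made up 56.7%, 56.2% and 55.2% of the summed RPKM of the alpha chains in shLuc and 79.3%, 78.1% and 79.4% in shWDR5. The share of LAMA5 went from 29.5 ± 0.39% to 14.5 ± 0.23%, and that of LAMA4 from 13.8 ± 0.85% to 6.15 ± 0.60% (SD, n = 3 each). Among beta chains, LAMB3 held 81.7 ± 1.53% in shLuc and 89.1 ± 0.49% in shWDR5, and LAMB1 12.5 ± 1.20% and 6.30 ± 0.45%. In neither class did the share of the laminin-332 chain overlap between groups. Ratios between chains that share a trimer differed between groups as well. LAMB3 exceeded LAMA3 5.85 ± 0.41 times in RPKM in shLuc and 3.86 ± 0.12 times in shWDR5. LAMB1 stood at 0.954 ± 0.007 of LAMC1 in shLuc and at 0.711 ± 0.005 in shWDR5 (SD, n = 3 each). Since the exon length of LAMA3 spans both its forms, the ratio of LAMB3 to LAMA3 would be smaller if the short form prevails. The LAMA3 shares would then be larger.

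The order of levels in shLuc cells ran LAMB3, LAMA3, LAMC1, LAMB1, LAMA5, LAMB2, LAMA4 and LAMA1, from 542.0 down to 0.983 RPKM. LAMA3 and LAMC1 were the only neighbours whose libraries overlapped, and the place of LAMA3 rests on an exon length that spans both its forms. In shWDR5 cells the order was the same except that LAMB2 (41.5 RPKM) passed LAMA5 (38.7 RPKM), and this pair overlapped, while LAMA3 and LAMC1 no longer did. Over all libraries, LAMB3 ranked at the 99.5th percentile of tested genes by mean RPKM, LAMA3 at the 97.8th and LAMC1 at the 95.5th, and LAMA1 at the 24.8th.

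Across the 6 libraries, the genes whose log2 counts, scaled to library size, most resembled LAMB3 were SLC39A4 (Pearson r = 0.999), C9orf114 (r = 0.999) and C1QTNF6 (r = 0.998), and those most like LAMA5 were LIMK1 (r = 0.999), HCFC1 (r = 0.998) and RFFL (r = 0.998). The 6 points are 2 groups of 3 libraries and share each library's depth, so a difference between groups alone raises r, and the values are a description only. By the same measure other laminin chains ranked far lower. LAMA3 was the 977th gene for LAMB3 (r = 0.956), ahead of LAMB2 at rank 2887 (r = 0.878), and LAMB1 was the 864th for LAMA5 (r = 0.959), ahead of LAMC1 at rank 1918 (r = 0.928).

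Cells bind laminins through integrins, dystroglycan, syndecans and the glycoprotein BCAM. All 14 receptor genes listed passed the filter on low counts, with 7 called higher, 4 lower and 3 not called, beside 26.6% higher and 29.9% lower among all genes tested, and a median log2 fold change of 0.12. Of the 7, ITGA3 and DAG1 did not keep their calls without several of the single libraries. ITGB4, the beta subunit of the hemidesmosomal laminin-332 receptor, rose from 742.1, 729.5 and 643.8 RPKM to 1168.8, 1028.3 and 1070.0 RPKM (log2 fold change 0.63 ± 0.07 SE, edgeR adjusted p = 3.52e-05). CD151, a tetraspanin bound to laminin-binding integrins, rose by a similar log2 fold change (0.62 ± 0.07), and ITGB1, the common beta subunit, by 0.35 ± 0.07. SDC2, a heparan sulfate proteoglycan, rose most (1.40 ± 0.12) from a low level of 0.616 RPKM. ITGA6, the alpha partner of ITGB4, was at 382.5 ± 28.8 RPKM in shLuc and 395.6 ± 27.1 RPKM in shWDR5. It did not pass the test (log2 fold change 0.05 ± 0.07 SE, edgeR adjusted p = 0.586), and neither did SDC4 (-0.03 ± 0.05, adjusted p = 0.697). The direction of SDC4 turned without shLuc replicate 1 (0.02, edgeR adjusted p = 0.831). BCAM, which binds the LAMA5 chain, fell from 13.5 to 9.52 RPKM (log2 fold change -0.50 ± 0.06 SE, edgeR adjusted p = 8.56e-05). SDC1 fell by 0.26, ITGA7 fell by 0.68 and ITGA1 fell by 0.34 on the log2 scale, the last 2 from shLuc means of 0.634 and 1.24 RPKM. ITGA1 lost its call without shLuc replicate 2 or 3 or without shWDR5 replicate 1 or 3 (adjusted p from 0.0604 to 0.102).

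Hemidesmosomes rivet the epithelial cell to laminin-332 and tie it to keratin filaments. Of their 6 genes, which share ITGA6, ITGB4 and CD151 with the receptors, 5 were called higher and 0 lower, beside 26.6% and 29.9% of all genes tested, with a median log2 fold change of 0.62. COL17A1, the transmembrane collagen of the hemidesmosome, was at 82.7, 80.1 and 81.8 RPKM in shLuc and at 181.7, 165.6 and 171.7 RPKM in shWDR5. Its groups lay far apart, with a 2.12-fold rise (log2 fold change 1.09 ± 0.05 SE, edgeR adjusted p = 2.03e-07). PLEC, the plectin linker to keratins, rose 1.77-fold from 102.5 to 181.7 RPKM (edgeR adjusted p = 2.26e-06), and DST, dystonin, rose 1.34-fold (adjusted p = 8.49e-05).

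Other components of the basement membrane moved both ways. Of 20 genes, 18 were tested, 8 were called higher (26.6% of all genes tested), 6 lower (29.9% of all genes tested) and 4 not, and the median log2 fold change was 0.05. COL7A1, the anchoring fibril collagen that binds laminin-332 in skin, was at 3.36, 3.32 and 3.09 RPKM in shLuc and at 13.6, 10.2 and 12.7 RPKM in shWDR5. This 3.74-fold rise (log2 fold change 1.90 ± 0.10 SE, edgeR adjusted p = 2.72e-07) was the largest in the list. EFEMP2, a fibulin of elastic fibres, rose 2.96-fold from 0.850 RPKM, and the collagen IV chains COL4A6 and COL4A5 rose 2.32-fold and 1.66-fold. COL4A2, a chain of the common collagen IV network, was at 51.6 ± 2.72 and 47.7 ± 1.92 RPKM and did not pass the test (log2 fold change -0.11 ± 0.06 SE, edgeR adjusted p = 0.121), but it passed without shLuc replicate 3 (adjusted p = 0.0328). SPARC, a collagen-binding glycoprotein, also did not pass (0.05 ± 0.05, adjusted p = 0.388). NTN4, a netrin that binds laminin gamma chains, fell from 14.5, 14.5 and 15.9 RPKM to 6.09, 6.51 and 6.28 RPKM (log2 fold change -1.25 ± 0.06 SE, edgeR adjusted p = 2.68e-07). FBLN1, a fibulin, fell by 1.01, LOXL2, a lysyl oxidase that crosslinks collagen IV, fell by 0.59, and TINAGL1, a matricellular protein of basement membranes, fell by 0.34 on the log2 scale. NID1, the nidogen that links LAMC1 to collagen IV, had at most 6 reads in any library and was not tested.

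Laminin-332 is trimmed outside the cell by proteases. Of the 10 genes listed, 6 were tested, with 2 called higher, 2 lower and 2 not called, a share near the 56.5% called among all genes. BMP1, a secreted metalloproteinase that trims laminin-332, rose from 9.22, 9.41 and 8.68 RPKM to 17.7, 14.4 and 16.2 RPKM (log2 fold change 0.82 ± 0.08 SE, edgeR adjusted p = 1.27e-05), and MMP2, a gelatinase, rose 1.42-fold from 16.2 RPKM. MMP14, the membrane-bound metalloproteinase, was at 85.6 ± 5.64 and 94.5 ± 5.06 RPKM and did not pass (log2 fold change 0.14 ± 0.06 SE, edgeR adjusted p = 0.0804), but it passed without shLuc replicate 1 (adjusted p = 0.0215). ST14, the membrane serine protease matriptase, fell by 0.28 on the log2 scale (adjusted p = 0.00228). TLL1 fell by 1.02 at a level under 0.16 RPKM in each library, and TLL2, at a like level, did not pass (adjusted p = 0.911).

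Marker genes were read beside the laminins. The 4 basal mammary markers, KRT5, KRT14, KRT17 and TP63, were all called higher, and their summed level was 1871, 1777 and 1713 RPKM in shLuc and 3675, 3185 and 3410 RPKM in shWDR5, most of it KRT17, a basal keratin. KRT14, the keratin that marks basal and myoepithelial cells, rose 2.44-fold (log2 fold change 1.29 ± 0.09 SE, edgeR adjusted p = 1.36e-06). These markers moved with the laminin-332 chains and the hemidesmosome genes, and their part in those results was not tested. Of the 4 general epithelial markers, CDH1, the E-cadherin gene, fell from 98.1, 106.0 and 104.9 RPKM to 48.7, 51.0 and 51.3 RPKM and EPCAM fell by 0.33 on the log2 scale, while KRT8 and KRT18 did not pass the test. The summed level of this list, led by KRT8, went from 2123, 2027 and 2005 RPKM to 2000, 1856 and 1903 RPKM. Fibroblast markers (8 genes, led by COL1A1) summed to between 3.72 and 4.05 RPKM in shLuc and between 2.54 and 3.08 RPKM in shWDR5, with LUM at 0 in all libraries and at most 4 reads in any library for COL1A2, COL3A1, DCN and THY1. Endothelial markers (4 genes, led by PECAM1) summed to between 1.75 and 1.87 RPKM in shLuc and between 1.15 and 1.299 RPKM in shWDR5. Leukocyte markers (4 genes, led by CD14, with CD3E at 0 in all libraries) summed to between 0.814 and 1.07 RPKM in shLuc and between 0.427 and 0.486 RPKM in shWDR5. At these low levels COL1A1 (log2 fold change -0.50, edgeR adjusted p = 0.000438), PECAM1 (-0.71, adjusted p = 5.65e-05) and CD14 (-1.05, adjusted p = 0.000342) were called lower. This was the direction of LAMA4, LAMA5 and LAMB1, and the part of these markers in those results was not tested. Some list members too low to be tested went the other way in reads. PTPRC had 1, 0 and 1 reads in shLuc and 7, 4 and 4 in shWDR5. VWF had 6, 1 and 5 in shLuc and 8, 7 and 12 in shWDR5, and COL1A2 had 0, 0 and 0 against 1, 4 and 2. COL3A1 had 1 read, in a shLuc library. PDGFRA (-0.83) and PDGFRB (-0.67), receptors of fibroblasts, did not pass. But PDGFRA passed without shLuc replicate 1 (-1.08, edgeR adjusted p = 0.0465) or shWDR5 replicate 3 (-1.34, 0.0229), and PDGFRB without shLuc replicate 3 (-1.01, 0.0210). KDR, an endothelial receptor under 0.11 RPKM in each library, had a log2 fold change of 0.75 and did not pass (adjusted p = 0.0807), but it passed without shLuc replicate 3 (1.17, adjusted p = 0.0212). ACTA2, the most abundant of 3 smooth muscle or myoepithelial markers, was called higher. MYH11 did not pass (log2 fold change 0.29, edgeR adjusted p = 0.175), and CNN1 had 1 read, in a shLuc library. The list, most of it ACTA2, summed to between 2.69 and 3.29 RPKM in shLuc and between 7.59 and 8.34 RPKM in shWDR5.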

How the data were processed

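Libraries of poly(A) RNA from MCF10DCIS.com cells (3 shLuc, 3 shWDR5) were made with a TruSeq RNA kit. The authors deposited raw counts per gene, made with TopHat2 2.1.0 and featureCounts on hg19 (GRCh37), per the submitters' processing notes; strand setting and the handling of shared reads are not given in the sources used here. The gene length, another deposited column, has no normalization. The authors' own edgeR results table, with fold changes and p-values, was not used. Exons of LAMA1, LAMA5 and LAMB3 overlap short RNA or antisense genes, of which MIR4260 within LAMB3 had most reads (116 in shLuc and 233 in shWDR5).

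Counts were fitted for all genes kept by filterByExpr (16117 of 26334; minimum count 10) with edgeR 4.0.16 in R 4.3.3 (TMM, quasi-likelihood test, 2 groups, Benjamini-Hochberg over all tested genes). All 8 laminin genes of the list passed this filter. SE is the log2 fold change divided by the square root of F. RPKM used TMM-scaled library sizes. The fit was tested on simulated data. Alternatives were DESeq2 1.42.0, RLE scaling, other filters, a likelihood ratio test, a replicate block, a stricter call rule, TPM, and leaving out each library. Genes, lists and rules were chosen with earlier results of these data known. From each list, up to 4 called genes per direction by p and up to 2 uncalled genes by level were named. DST and NID1 were added after their values were seen. ITGA3, DAG1 and some other genes are named for calls that changed under an alternative. Some laminin genes are not reported here. Replicates differed by far more than counting noise.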

Additional observations from a re-analysis of the deposited data

How the results depend on the processing

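Direction held for all 8 laminin genes and for WDR5 under every alternative run, and LAMA3, LAMB3, LAMA4, LAMA5 and LAMB1 stayed past the threshold in each fit. Genes called numbered 4291 higher and 4821 lower, and 1274 and 1688 with the added log2 fold change of at least 0.6 and RPKM above 0.5, where 1 of the 8 laminin genes was called in place of 5 by construction of the stricter rule. LAMB3 reached that fold change with RLE scaling, DESeq2 or a minimum of 1 CPM (0.60 each), and without shLuc replicate 1 (0.67), shLuc replicate 2 (0.60) or shWDR5 replicate 2 (0.63). With the replicate number as a block, all 8 were called (LAMA1 adjusted p = 0.0493, LAMB2 0.0145, LAMC1 0.0283), with 4901 higher and 5511 lower over all genes. The numbers were not taken as pairs, since no label says that a number stands for a shared day or infection. Deviations of same-numbered libraries correlated at 0.372, 0.036 and 0.116, and those of differently numbered libraries at -0.312 to 0.210. With 3 libraries per group, these values cannot decide whether the numbers mark pairs. Leaving out 1 library gave 5 to 6 called laminin genes, 3803 to 4263 higher and 4271 to 4584 lower genes, and a difference between LAMA3 with LAMB3 and the other 6 of 1.08 to 1.18 in mean log2 fold change. TPM rescales each library by its per-length total, which shifts all genes alike. The log2 ratio of mean levels became 1.11 for LAMA3 and 0.51 for LAMB3 (1.18 and 0.58 on RPKM). It became -0.41 for LAMA5, -0.60 for LAMB1 and -0.18 for LAMC1 (-0.33, -0.53 and -0.10 on RPKM) and 0.055 for LAMB2 (0.13 on RPKM). ITGA3 lost its call without any single library except shLuc replicate 1 (adjusted p from 0.0618 to 0.134), and DAG1 without shLuc replicate 2 or shWDR5 replicate 1 or 2 and with no low-count filter (0.0544 to 0.0780). NID2 lost its call with DESeq2 (0.0617) and without shLuc replicate 1 or 3 or shWDR5 replicate 2 or 3 (0.101 to 0.149). COL4A4 lost its call with DESeq2 (0.0525) and without replicate 3 of shLuc or of shWDR5 (0.0562 and 0.0613). With a minimum of 1 CPM, NID2 and TLL1 were too low to be tested. The block also brought COL4A2 (adjusted p = 0.0302), MMP14 (0.0111), KRT18 (0.0179), PDGFRB (0.0488) and KDR (0.0475) past the threshold, and the likelihood ratio test brought KDR past it (0.0369). Depth limits LAMB4 and LAMC3, which had under 11 reads in each library.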
